A study of Mus musculus with 6 samples.

Results

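The genes of the major histocompatibility complex (MHC, named H2 in the mouse) and of antigen processing were followed in mouse bone marrow blasts of an acute myeloid leukemia that carries MLL-AF9, a fusion of a chromatin regulator gene with the gene of an elongation factor partner. Members were chosen by gene symbol: the H2- genes that are not pseudogenes, and 16 genes of peptide generation, peptide loading and MHC transcription. Of the 50 genes that this rule names, 48 had a row among the 35932 rows of the count table; Nlrc5 and Psmb9 had none and were not analysed here. The sensitive group held 3 libraries of MLL-AF9+ blasts treated with vehicle (labelled "vehicule"), and the resistant group 3 libraries of MLL-AF9+ blasts labelled "Cytarabin+Doxorubicin", a nucleoside analogue and an anthracycline used together against this leukemia. Resistance and drug exposure thus went together in the 6 libraries and cannot be told apart. Mouse strain, age, sex, dose and time of harvest are not among the labels, nor is whether the replicates came from separate animals, so p-values describe only how far these libraries spread, possibly for technical reasons.

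MHC class I molecules pair a heavy chain with the light chain beta-2 microglobulin and show peptides made in the cell to CD8 T cells and to natural killer cells. Their peptides are cut by the proteasome, carried into the endoplasmic reticulum by the TAP transporter and fitted by tapasin, calreticulin and the trimming enzyme ERAP1. MHC class II molecules pair an alpha with a beta chain, travel with the invariant chain CD74 to endosomes and exchange their placeholder there with the help of H2-DM, which H2-DO restrains. Both classes share promoter elements that the RFX complex binds, with NLRC5 as the coactivator for class I and CIITA for class II.

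Library totals were 22206341 to 31856009 counts, and 3 counts, taken as the limit that a count of 0 allows, were worth 0.0945 to 0.137 CPM, that is, counts scaled to a common library size with TMM factors. Values below are TMM-normalised CPM, means are given ± SD over 3 libraries, and log2 fold changes (± SE) set resistant over sensitive blasts and come from edgeR's quasi-likelihood test, adjusted over the 13414 genes tested with a threshold of 0.05. Of the myeloid blast markers, Mpo, the myeloperoxidase gene, was at 1210 to 2060 CPM and Cd34 at 575 to 772 CPM over the 6 libraries. Blast markers moved with the groups too: of the 10, 3 were lower (log2 fold changes of -1.93 for Cebpa, -0.98 for Elane and -0.31 for Kit), 3 higher (Hoxa9, Cd34 and Ctsg) and 4 did not pass. Markers of other cells moved in part with the groups. The 6 red cell markers summed to 43.5 to 76 CPM in sensitive and 0.157 to 1.55 CPM in resistant libraries, and the 8 neutrophil markers to 199 to 239 and 31.5 to 49.5 CPM. Of the red cell and neutrophil lists, 5 of 5 and 7 of 8 tested genes were lower. Over all genes tested, 20.8% were lower and 18.5% higher. The 8 T cell and natural killer cell markers went the other way in sum, 49.8 to 67.9 CPM in sensitive and 71.1 to 98.2 CPM in resistant libraries. Most of that sum was Nkg7, which was higher (0.64), while Cd8a was lower (-0.66). The part of these marker changes in the results below was not tested. In bulk RNA, fewer cells of a type and less RNA per cell cannot be told apart.

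The upstream sequences of the class I heavy chain genes that the results turn on are shown first. Several of the elements occur both in genes that passed the test and in genes that did not. Each run is the 200 bases before the start of transcription, 5′ to 3′, from RefSeq on build GRCm38.p6, a later build than the authors' mm9; 40 of the 48 members had an entry. Capitals mark 4 elements searched on both strands: the Y box CCAAT (printed ATTGG on the other strand), the interferon response element core TTTCACTT, the NF-kB site of enhancer A, GGATTCCCC, and the X box core AGCAAC.
H2-K1 (chr17:34000348-34000547, - strand): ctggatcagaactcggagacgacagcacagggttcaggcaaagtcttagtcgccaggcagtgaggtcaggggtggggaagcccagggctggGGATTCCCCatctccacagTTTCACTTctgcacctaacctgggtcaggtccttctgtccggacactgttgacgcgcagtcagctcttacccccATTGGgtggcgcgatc
H2-D1 (chr17:35262894-35263093, + strand): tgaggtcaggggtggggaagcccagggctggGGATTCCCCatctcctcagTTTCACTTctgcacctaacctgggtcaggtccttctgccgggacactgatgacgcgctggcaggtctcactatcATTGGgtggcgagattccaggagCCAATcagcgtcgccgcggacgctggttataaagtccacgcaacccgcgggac
H2-Q4 (chr17:35379417-35379616, + strand): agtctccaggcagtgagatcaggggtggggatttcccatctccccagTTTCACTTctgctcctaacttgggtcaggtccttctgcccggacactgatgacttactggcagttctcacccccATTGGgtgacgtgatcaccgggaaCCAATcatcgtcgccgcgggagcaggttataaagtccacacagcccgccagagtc
H2-Q6 (chr17:35424650-35424849, + strand): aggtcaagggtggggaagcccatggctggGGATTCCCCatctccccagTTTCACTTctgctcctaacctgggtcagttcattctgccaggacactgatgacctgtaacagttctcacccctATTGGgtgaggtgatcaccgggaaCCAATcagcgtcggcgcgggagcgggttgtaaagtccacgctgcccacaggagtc
H2-Q7 (chr17:35438955-35439154, + strand): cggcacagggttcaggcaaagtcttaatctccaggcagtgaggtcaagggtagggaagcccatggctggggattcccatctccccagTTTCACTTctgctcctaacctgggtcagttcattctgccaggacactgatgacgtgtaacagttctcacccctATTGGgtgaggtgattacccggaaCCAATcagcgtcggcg
H2-T23 (chr17:36032702-36032901, - strand): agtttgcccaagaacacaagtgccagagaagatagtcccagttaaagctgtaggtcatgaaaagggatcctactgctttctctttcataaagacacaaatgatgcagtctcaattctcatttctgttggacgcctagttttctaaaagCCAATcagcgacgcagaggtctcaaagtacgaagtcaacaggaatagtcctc

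Over the 250 bases before the start, the interferon element was in 8 of the 9 tested class I heavy chain genes with an entry, against 1.44% of 27025 promoters. The Y box was in 8 of these 9 (34.5% of promoters) and the enhancer A site in 3 of 9 (0.233%), which were H2-K1, H2-D1 and H2-Q6. H2-T23 held only the Y box, and the X box core was in 0 of the 9. The motifs were chosen with these sequences in view and the genes are related, so the shares are no test of enrichment. A match is a description of letters and not evidence of binding, and exact matching leaves out near matches. H2-Q6, with the largest change below, carried the same 3 kinds of element as H2-D1, which did not pass the test. The part of these elements in the changes was not tested.

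Among MHC class I heavy chains, the falls that passed the test were in nonclassical genes. Of 24 heavy chain genes named H2-, 11 passed the low-count filter. Of these, 5 were lower in resistant blasts, 0 higher and 6 did not pass. Over all genes tested, 20.8% were lower, 18.5% higher and 39.2% changed in either direction. Genes under other names were not counted. Among them the gene model Gm11127, which shares some sequence with H2-T3 and the pseudogene H2-K2, was higher (0.82 ± 0.14, edgeR adjusted p = 0.000941). At an unadjusted p under 0.05, 6 of the 11 were lower and 0 higher, and DESeq2 called 4 lower and 0 higher. The count of 5 became 2 without sensitive library 2, 3 when sensitive library 1, resistant library 1 or resistant library 3 was left out, and 7 without resistant library 2. The 5 were nonclassical (class Ib) genes: H2-Q6, H2-Q7, H2-Q4, H2-T23 and H2-T24. The 2 classical genes H2-K1 and H2-D1, which present most peptides to CD8 T cells, were lower on average but did not pass, and neither did the light chain gene B2m. The median of the 11 was -0.29 on the log2 scale, beside -0.01 over the genes tested.

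H2-Q6, a gene of the Qa family of nonclassical antigens, was at 5.71, 5.69 and 4.59 CPM in the sensitive libraries and at 0.756, 1.09 and 0.819 CPM in the resistant ones. The groups lay far apart, with a fall by 2.59 ± 0.21 on the log2 scale, a 6.04-fold lower level (edgeR adjusted p = 7.78e-06). Its neighbour and close relative H2-Q7 was at 4.03, 5.41 and 3.46 CPM in sensitive and 1.48, 2.87 and 2.11 CPM in resistant libraries, a fall by 1.01 ± 0.26 (adjusted p = 0.0104). The groups did not overlap in either gene or in their ratio: that of H2-Q7 to H2-Q6 CPM was 0.705, 0.952 and 0.755 in sensitive and 1.96, 2.62 and 2.57 in resistant libraries. The call of H2-Q7 was lost without sensitive library 2 (adjusted p = 0.0521; range over 14 alternatives 0.000431 to 0.0521). Reads can be shared in this family. Of the distinct 50-base stretches in the transcripts of H2-Q6, 35% also occurred in transcripts of other genes, 13.9% in those of H2-Q7. For H2-Q7 the shared part was 26.5%. How the authors' counting treated such reads is not given in the sources used here.

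H2-Q4, which encodes another nonclassical chain, was at 31.4, 34.9 and 28.6 CPM in sensitive and 14, 27.4 and 17.8 CPM in resistant libraries. It fell by 0.69 ± 0.19 (adjusted p = 0.017), with the second resistant library close to the sensitive range. The call was lost with DESeq2 and when either of sensitive libraries 1 and 2 or of resistant libraries 1 and 3 was left out (adjusted p over 14 alternatives 6.51e-05 to 0.068). Of its 50-base stretches 36.4% were shared. Summed over the 6 H2-Q members the level was 43.8, 49.7 and 39.6 CPM in sensitive and 18.9, 34.9 and 23.7 CPM in resistant libraries, and these groups did not overlap.

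H2-T23 encodes the nonclassical antigen whose complex with leader peptides of other class I chains is read by NKG2 receptors of natural killer cells. It was at 68.2, 65.3 and 59.3 CPM in sensitive and 35.3, 44.6 and 41.1 CPM in resistant libraries, and it was the most abundant nonclassical gene per length in both groups (22.2 and 14 CPM per kb of exon). The groups did not overlap, and the fall by 0.68 ± 0.09 (adjusted p = 0.000268) held in each of the 14 alternatives. Of the 50-base stretches of H2-T23 14.5% were shared with other genes. H2-T24 was at 19.2, 18.5 and 16.9 CPM in sensitive and 11.9, 16.6 and 10.1 CPM in resistant libraries, a fall by 0.51 ± 0.16 (adjusted p = 0.0249). That call was lost without sensitive library 1 or 2 and without resistant library 1 or 3 (adjusted p over 14 alternatives 0.0014 to 0.0869).

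**Figure D1:**
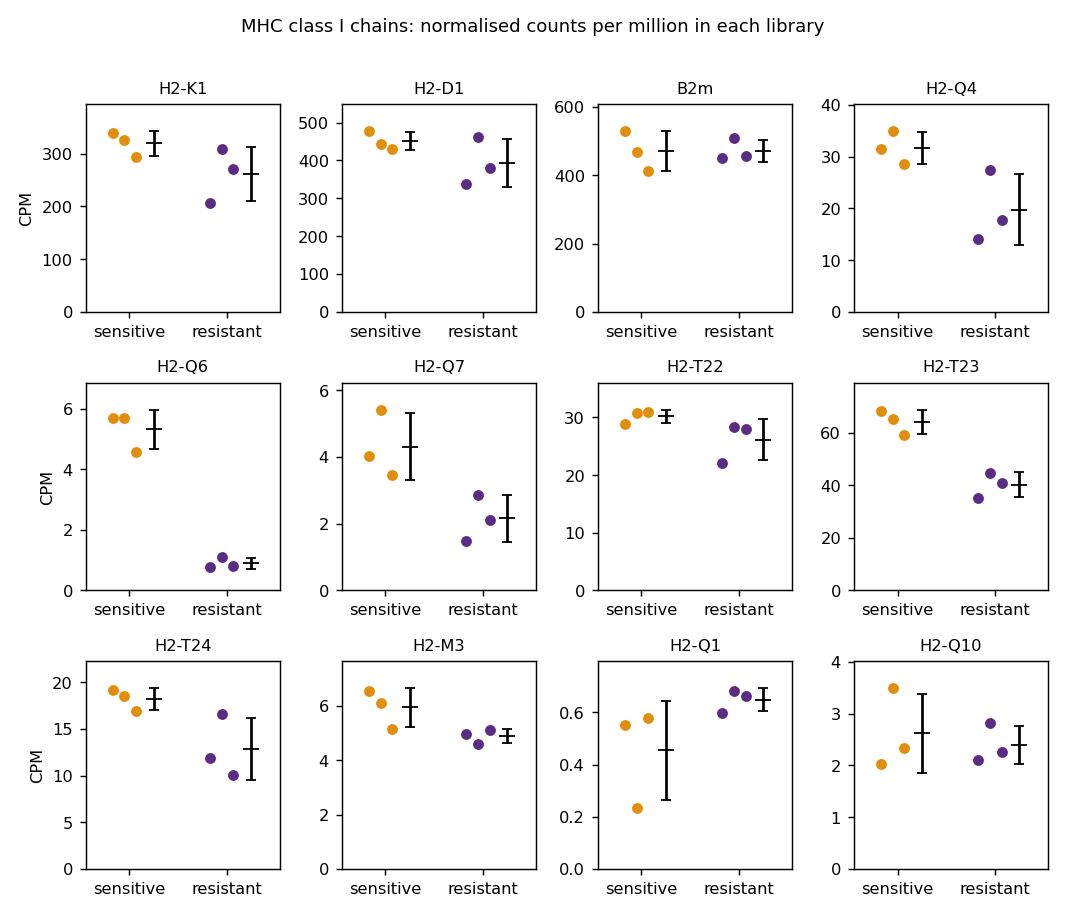
Normalised CPM (y axes, starting at 0) of 12 MHC class I chain genes in the 3 sensitive (orange) and 3 resistant (purple) libraries, in the order of their replicate numbers; dashes with bars are mean ± SD. H2-Q6 and H2-T23 show wide gaps between the groups, H2-K1, H2-D1 and B2m overlap, and the second resistant library is the highest of its group in most panels.

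The classical genes stood above the nonclassical ones per length, H2-D1 at 175 and 153 and H2-K1 at 109 and 89.1 CPM per kb in sensitive and resistant blasts. H2-K1 was at 340, 326 and 293 CPM across the sensitive libraries against 206, 308 and 271 CPM across the resistant ones (-0.29 ± 0.12, adjusted p = 0.0795). H2-D1 was at 477, 443 and 431 CPM across the sensitive libraries against 338, 462 and 381 CPM across the resistant ones (-0.19 ± 0.10, adjusted p = 0.136). The groups overlapped in both genes and the second resistant library lay within the sensitive range. That library was the highest of the resistant ones in 10 of the 11 heavy chain genes tested, and the first resistant library was the lowest in 9. Without resistant library 2 both genes passed, H2-K1 at -0.41 ± 0.11 (adjusted p = 0.0183) and H2-D1 at -0.32 ± 0.07 (0.00824), and both also passed with no low-count filter (0.00712 and 0.0485). Their adjusted p ranged over 14 alternatives from 0.00712 to 0.223 and from 0.00824 to 0.409.

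B2m, the shared light chain, was at 529, 468 and 412 CPM across the sensitive libraries against 451, 508 and 456 CPM across the resistant ones (0.01 ± 0.09, adjusted p = 0.964), so the groups overlapped. The summed heavy chains were at 932 ± 53.8 CPM across the sensitive libraries against 765 ± 131 CPM across the resistant ones. The ratio of B2m to summed heavy chain CPM was 0.538, 0.499 and 0.47 in sensitive and 0.708, 0.565 and 0.599 in resistant libraries. H2-K1 and H2-D1 together made up 83.1, 81.8 and 82.7% of the heavy chain CPM in sensitive and 85.4, 85.6 and 85.8% in resistant libraries. The nonclassical share was smaller in each resistant than in each sensitive library.

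The other heavy chain genes tested did not pass. H2-T22, whose product binds receptors of some gamma-delta T cells, had a log2 fold change of -0.21 ± 0.10 (adjusted p = 0.115), with 53.5% of its 50-base stretches shared, mostly with H2-T10. H2-M3, which presents peptides that begin with formylmethionine, was at -0.28 ± 0.14 (0.145); for both genes the resistant libraries all lay below the sensitive ones. H2-Q10, a gene of a secreted chain, was at -0.13 ± 0.24 (0.703). H2-Q1 was at 0.48 ± 0.37 (0.329; its resistant libraries all lay above the sensitive ones), with 6 to 19 counts per library.

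Peptide generation and loading genes gave 1 call among 8 genes tested. Of 6 loading genes 1 was lower (20.8% of all genes tested were), 0 higher (18.5%) and 5 did not pass, and both immunoproteasome genes with a row did not pass; at an unadjusted p under 0.05 the loading genes again gave 1 lower and 0 higher and the immunoproteasome 0, as did DESeq2. Tap1, a subunit gene of the peptide transporter, was at 103, 101 and 91.9 CPM in sensitive and 76.6, 92.2 and 85.7 CPM in resistant libraries, a fall by 0.21 ± 0.08 (adjusted p = 0.0427) with groups that overlapped. Its call was lost without sensitive library 1 or 2 and without resistant library 1 or 3 (adjusted p over 14 alternatives 0.019 to 0.139). Tap2, the partner subunit gene, was at -0.08 ± 0.07 (0.366).

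Psmb8, an interferon-inducible catalytic subunit gene of the immunoproteasome, was at 303, 290 and 293 CPM across the sensitive libraries against 280, 316 and 338 CPM across the resistant ones (0.08 ± 0.07, adjusted p = 0.407). Psmb10, another such subunit gene, was at 0.06 ± 0.07 (0.574). Tapbp, the tapasin gene, was at -0.14 ± 0.06 (0.116), and passed with library totals as the scale (0.0453; range over 14 alternatives 0.0453 to 0.313). Calr, the calreticulin gene and the most abundant member per length (735 and 678 CPM per kb), was at -0.12 ± 0.07 (0.21). Erap1, the peptide trimming enzyme gene, was at -0.04 ± 0.07 (0.652), and Tapbpl, which encodes a tapasin-related peptide editor, at -0.03 ± 0.08 (0.826). A p that misses the threshold does not show that these genes were level.

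**Figure D2:**
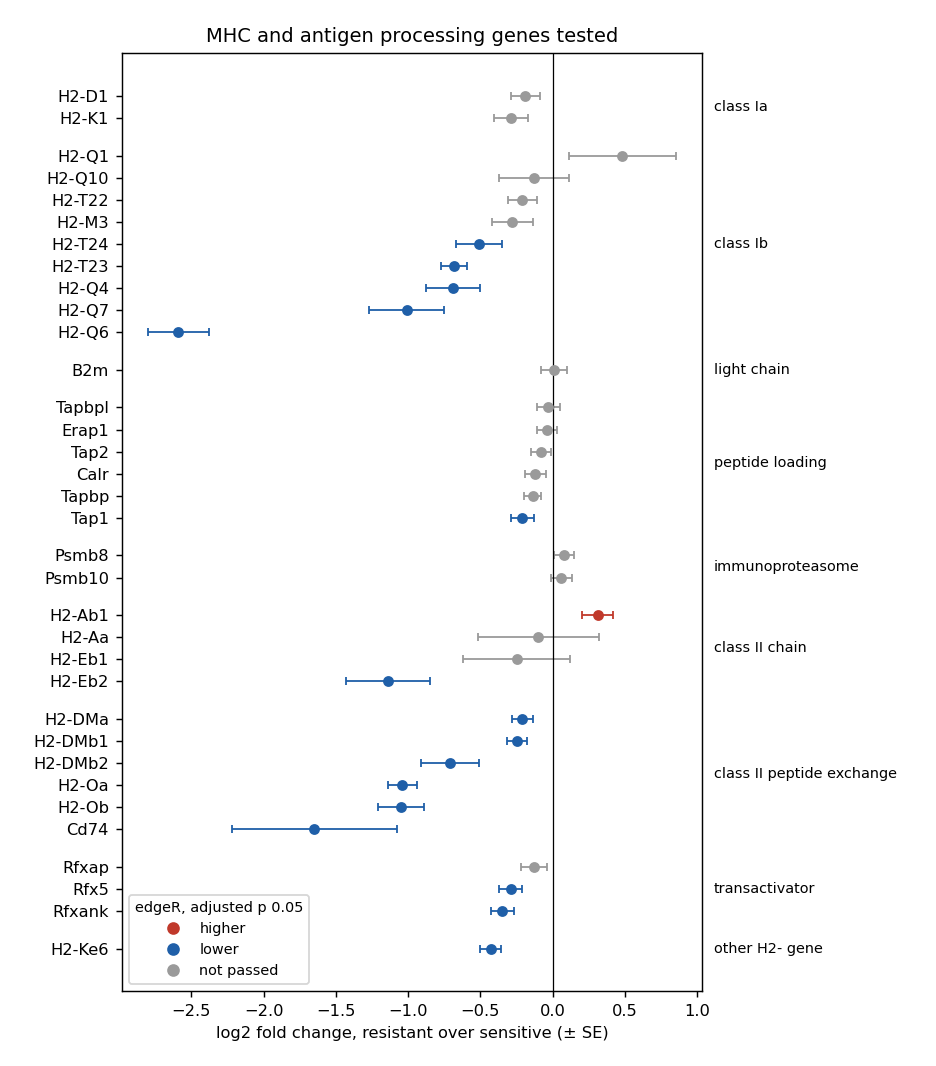
Log2 fold change, resistant over sensitive, ± SE (x axis) of the 34 genes tested, grouped by role; blue points were lower and the red point higher at an adjusted p of 0.05 (edgeR), grey points did not pass. Of the 16 lower genes, 5 are class Ib and 6 class II peptide exchange genes, while loading and immunoproteasome genes lie close to 0.

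The MHC class II chains themselves were scarce in both groups. Per length, H2-Ab1 was at 5.59 CPM per kb in sensitive and 6.93 in resistant blasts, while its partner H2-Aa was at 0.158 and 0.152 CPM per kb, with 9 to 19 counts per library. H2-Ab1, the beta chain gene of I-A, was at 12.7, 15 and 15.4 CPM in sensitive and 16.4, 17.3 and 19.8 CPM in resistant libraries. It rose by 0.31 ± 0.11 (adjusted p = 0.0452), with groups that did not overlap, and was the 1 member of 34 that was higher. This call sat at the threshold: it was lost with upper-quartile factors or library totals as the scale, and without any of sensitive libraries 1, 2 and 3 or resistant libraries 2 and 3 (adjusted p over 14 alternatives 0.0214 to 0.146).

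H2-Aa, the alpha chain gene, was at 0.447, 0.745 and 0.609 CPM in sensitive and 0.284, 0.865 and 0.585 CPM in resistant libraries (-0.10 ± 0.42, adjusted p = 0.876). H2-Eb1, the beta chain gene of I-E, was at -0.25 ± 0.37 (0.617), with 7 to 15 counts per library. H2-Eb2, a related beta chain gene, was at 1.79, 1.65 and 1.83 CPM in sensitive and 0.945, 0.455 and 0.936 CPM in resistant libraries. It fell by 1.14 ± 0.29 (adjusted p = 0.0099), the groups lay apart, and the call held in each of the 14 alternatives.

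Class II peptide exchange genes were lower throughout, with 6 of 6 past the test, against 20.8% of all genes tested that were lower. Resistant libraries all lay below sensitive ones in each of the 6. Over all genes tested, 27.2% of genes had their resistant libraries below and 25.2% above the sensitive ones. The count of 6 became 2 without sensitive library 2 or resistant library 1 and 3 without sensitive library 1 or 3. It was 5 with RLE or upper-quartile factors and without resistant library 2 or 3. H2-Oa, the alpha chain gene of H2-DO, was at 21.1, 17.9 and 18.1 CPM in sensitive and 9.9, 9.01 and 8.85 CPM in resistant libraries. H2-Ob, the beta chain gene of the same dimer, was at 6.92, 5.37 and 5.55 CPM in sensitive and 2.77, 2.73 and 3.12 CPM in resistant libraries. The groups lay apart in both genes. H2-Oa fell 2.05-fold (-1.04 ± 0.10, adjusted p = 3.4e-05) and H2-Ob 2.07-fold (-1.05 ± 0.16, adjusted p = 0.000613). Both calls held in each of the 14 alternatives. Of the 50-base stretches of H2-Oa 15.5% occurred in the gene BC051537, while H2-Ob shared 0%.

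The upstream sequences of this pair are shown because both subunit genes of 1 dimer fell in each alternative. Capitals mark the X box core AGCAAC, 77 and 88 bases before the start, and the Y box ATTGG, 43 and 57 bases before it.
H2-Oa (chr17:34092179-34092378, + strand): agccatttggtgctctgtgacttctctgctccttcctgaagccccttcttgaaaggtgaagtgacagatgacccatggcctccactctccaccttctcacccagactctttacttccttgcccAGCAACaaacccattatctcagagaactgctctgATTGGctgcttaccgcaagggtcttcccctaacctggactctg
H2-Ob (chr17:34238705-34238904, + strand): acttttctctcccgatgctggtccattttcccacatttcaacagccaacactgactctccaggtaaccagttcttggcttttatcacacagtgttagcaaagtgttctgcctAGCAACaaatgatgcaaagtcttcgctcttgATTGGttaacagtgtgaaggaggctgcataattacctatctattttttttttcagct

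Of the 8 tested class II genes with an entry, 4 held the X box core (12.3% of promoters) and 7 the Y box. The 4 were H2-Oa, H2-Ob, H2-Eb2 and H2-Eb1, each with a Y box too, and H2-Eb1 did not pass the test. Here too the motifs were chosen with the sequences in view, so these shares are no test of enrichment. The fold changes of H2-DMa and H2-DMb1 were nearer to 0 than those of H2-Oa and H2-Ob, a difference that was not tested. H2-DMa, the alpha chain gene of the peptide exchanger, was at 73.3, 70.1 and 75.5 CPM in sensitive and 56.9, 63.6 and 68.9 CPM in resistant libraries (-0.21 ± 0.07, adjusted p = 0.0461). H2-DMb1, a beta chain gene, was at 56.9, 59.1 and 60.1 CPM in sensitive and 46.1, 47.9 and 53.7 CPM in resistant libraries (-0.25 ± 0.07, adjusted p = 0.0171). In both, the groups lay close together without overlapping.

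The call of H2-DMa was lost under 7 of 14 alternatives: RLE or upper-quartile factors, and without any of sensitive libraries 1, 2 and 3 or resistant libraries 1 and 2 (adjusted p 0.017 to 0.148). That of H2-DMb1 was lost without sensitive library 2 or 3 or resistant library 1 (adjusted p over 14 alternatives 0.00598 to 0.0665). H2-DMb2, the second beta chain gene, was at 3.41, 3.45 and 2.95 CPM in sensitive and 1.64, 2.05 and 2.34 CPM in resistant libraries (-0.71 ± 0.20, adjusted p = 0.0164). Its call was lost without sensitive library 1 or 2 or resistant library 1 (0.0118 to 0.062), and 21.2% of its 50-base stretches occurred in H2-DMb1.

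Cd74, the invariant chain gene, was at 1.45, 2.08 and 1.48 CPM in sensitive and 0.284, 1.27 and 0.117 CPM in resistant libraries, from 42, 53 and 46 counts against 9, 28 and 3. The resistant libraries spread widely, and the fall by 1.65 ± 0.57 (adjusted p = 0.041) was lost without any of sensitive libraries 1, 2 and 3 or resistant libraries 1 and 3. Without resistant library 2 it was -2.97 ± 0.43 (adjusted p = 0.000972; range over 14 alternatives 0.000972 to 0.152). Per length Cd74 was at 0.992 and 0.333 CPM per kb, below H2-DMa and H2-DMb1 in both groups.

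**Figure D3:**
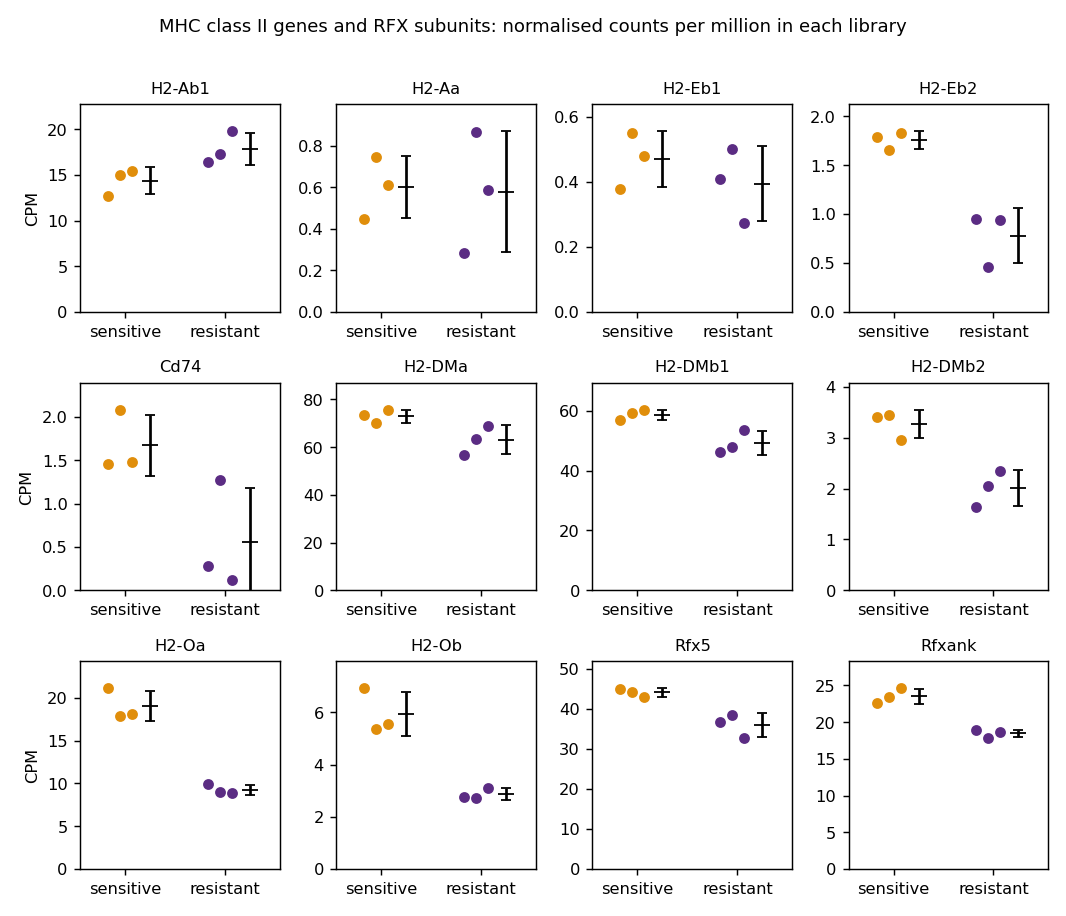
Normalised CPM (y axes, starting at 0) of MHC class II genes and 2 RFX subunit genes in the 3 sensitive (orange) and 3 resistant (purple) libraries, in the order of their replicate numbers; dashes with bars are mean ± SD (the bar of Cd74 is cut at 0). H2-Oa and H2-Ob show tight groups far apart, while H2-Aa and H2-Eb1 overlap and Cd74 spreads widely in resistant blasts.

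Markers of professional antigen-presenting cells were read beside these genes. Of the 8 B cell markers, 1 of 3 tested was lower (Cd22), and the list summed to 39.5 to 42.9 CPM in sensitive and 38.6 to 41.4 CPM in resistant libraries, nearly all of it Cd79b. The defining markers Ms4a1 and Pax5 had 10 and 5 counts over the sensitive libraries and 0 in the resistant ones. Of the 9 dendritic cell markers, 4 were tested, with 2 lower (Itgax and Flt3) and 1 higher (Zbtb46). They summed to 105 to 136 CPM in sensitive and 49.2 to 69.7 CPM in resistant libraries, most of it Flt3, which blasts also express, and Cd209a had 0 counts. The 8 macrophage and monocyte markers went the other way in sum, 317 to 347 CPM in sensitive and 362 to 452 CPM in resistant libraries, with Csf1r lower (-0.94), Vcam1 higher (0.57) and 6 not past the test. The part of such cells in the falls of H2-Oa, H2-Ob, H2-Eb2 and Cd74 was not tested.

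Of the transcription factor genes, Ciita, the class II coactivator, had 3, 0 and 2 counts across the sensitive libraries against 1, 1 and 0 counts across the resistant ones, at or below the floor of 3 counts. Rfx5, the DNA-binding subunit gene of RFX, was at 45, 44.2 and 43 CPM in sensitive and 36.8, 38.4 and 32.7 CPM in resistant libraries (-0.29 ± 0.08, adjusted p = 0.0106). Rfxank, the ankyrin repeat subunit gene, was at 22.6, 23.4 and 24.6 CPM in sensitive and 18.9, 17.9 and 18.6 CPM in resistant libraries (-0.35 ± 0.08, adjusted p = 0.00648). Both groups of 3 lay apart, and both calls held in each of the 14 alternatives. Rfxap, the third subunit gene, was at -0.13 ± 0.09 (0.236). Of the 50-base stretches of Rfxank 29% occurred in the overlapping gene Nr2c2ap, and 22.3% of those of Rfx5 in another gene. H2-Ke6, an H2- gene that encodes a steroid dehydrogenase and takes no part in presentation, was at 32.2, 35.2 and 35.4 CPM across the sensitive libraries against 24.9, 26.2 and 25.4 CPM across the resistant ones. It fell by 0.43 ± 0.07 (adjusted p = 0.00125), also in each alternative, with 70.5% of its stretches shared with the gene model Gm20427.

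Over the 48 members, 34 passed the low-count filter, 16 were lower (47.1% of those tested, against 20.8% of all genes tested), 1 was higher and 17 did not pass. The count of 16 was 8 without sensitive library 2, when 14.6% of the genes tested were lower, 9 without resistant library 1 (18.3%), 10 without sensitive library 1 (16.4%) and 17 without resistant library 2 (19.6%). In 8 members the fall passed under each of the 14 alternatives, namely H2-Q6, H2-T23, H2-Oa, H2-Ob, H2-Eb2, H2-Ke6, Rfx5 and Rfxank. Of the 14 members below the filter, 9 H2-M genes had no count in any library, which allows up to 3 counts, or 0.0945 to 0.137 CPM, per library. The other 5 were Ciita, H2-Q2, H2-T3, H2-M10.2 and H2-M10.6, with sums of 3 to 7 counts.

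**Figure D4:**
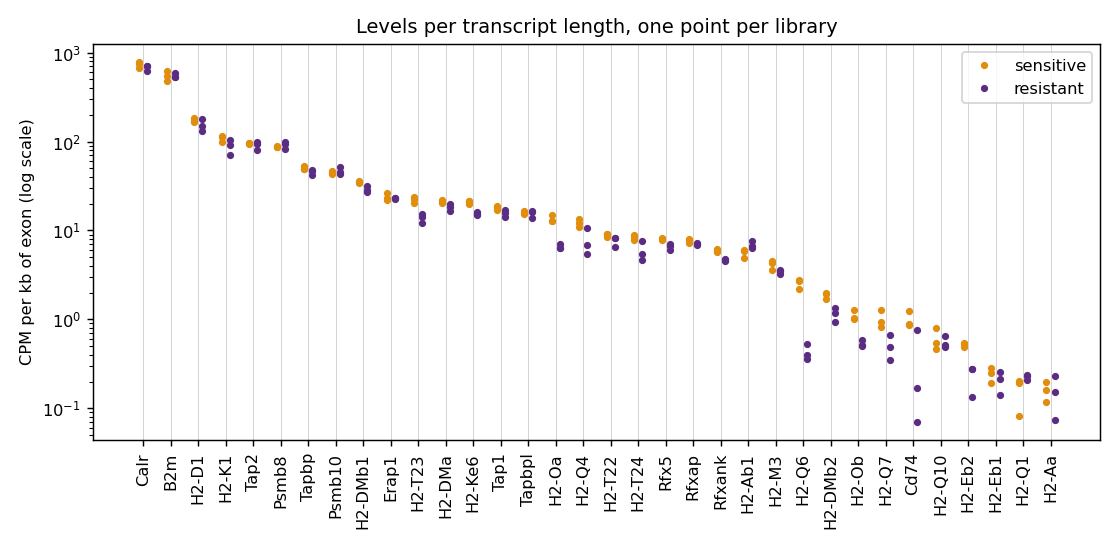
Level of the 34 genes tested as CPM per kb of exon (log y axis), one point per library, ordered by the mean of the sensitive libraries. Calr and B2m lead, the classical chains H2-D1 and H2-K1 follow, and H2-Aa and H2-Q1 are at the low end.

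Per length, the order of levels in sensitive blasts was Calr (735 CPM per kb), B2m (546), H2-D1 (175), H2-K1 (109), Tap2 (96), Psmb8 (87.3), Tapbp (50.2) and Psmb10 (44.8). In resistant blasts Psmb8 (92), Tap2 (90.5) and H2-K1 (89.1) came in the reverse order, within their spread over libraries. Psmb10 (46.7) and Tapbp (45.6) also changed places there, likewise within their spread. Within class II, the exchanger genes H2-DMb1 (34.9 and 29.3 CPM per kb) and H2-DMa (21.2 and 18.3) stood above H2-Oa (13.5 and 6.58) and above H2-Ab1, the most abundant chain. These levels use exon lengths of the GENCODE M21 annotation, which may differ from those of the authors' annotation.

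Position was examined too, since most members lie in the H2 complex on chromosome 17. From Tapbp to H2-M3 in M21 order, 126 genes were tested. Of the 25 members there 13 were lower and 1 higher (median -0.25). Of the 97 other genes 27 were lower and 10 higher (median -0.17). That is 27.8% lower beside 20.8% in the whole table, where 18.5% were higher. The pseudogenes that the rule left out included 4 tested ones. H2-Q5, annotated as a polymorphic pseudogene, fell by 1.10 ± 0.26 (adjusted p = 0.00719), H2-K2 by 0.70 ± 0.24 (0.0438) and H2-T-ps by 0.32 ± 0.10 (0.0241), while H2-T10 was at 0.00 ± 0.19 (0.986).

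**Figure D5:**
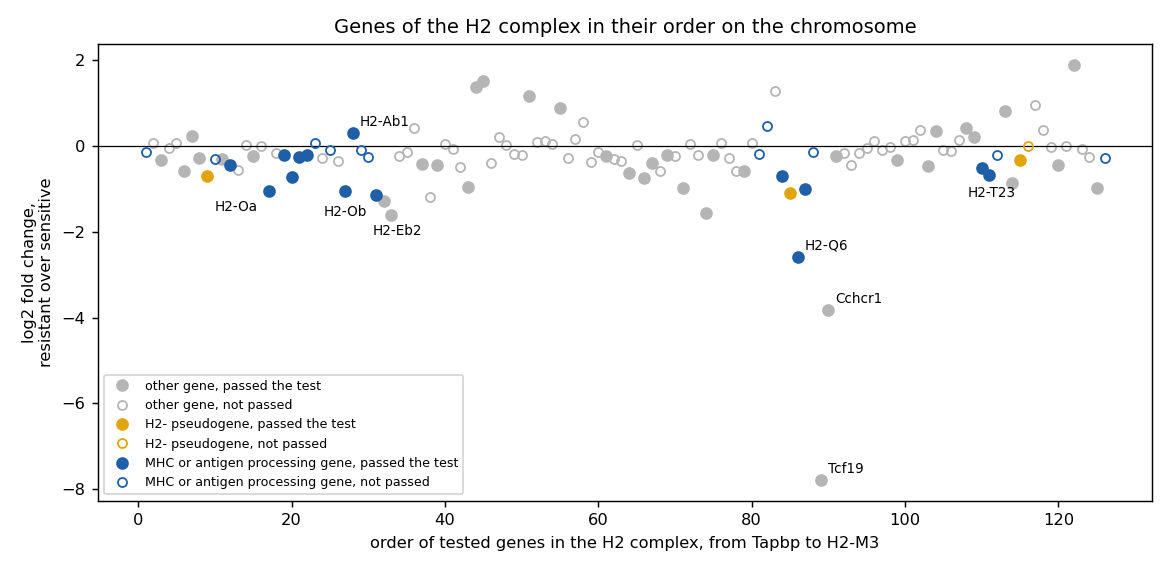
Log2 fold change, resistant over sensitive (y axis), of the 126 tested genes from Tapbp to H2-M3 in their order on the chromosome (x axis, rank); filled points passed the edgeR test and open ones did not. Lower members (blue) stand between other genes (grey) that moved both ways, and the lowest points are Tcf19, Cchcr1 and H2-Q6.

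Related genes that are not members were read from lists fixed with earlier results of these data known. Of 21 genes of interferon signalling and promoter factors, 11 were lower (against 20.8% of all genes tested), 1 higher (18.5%) and 9 did not pass, with a median of -0.24 on the log2 scale beside -0.01 over all genes tested. The interferon receptor genes Ifngr1 (-0.44 ± 0.07) and Ifnar2 (-0.47 ± 0.06) were among the lower ones. So were the interferon regulatory factor genes Irf1, from 60.5 ± 2.47 to 43.6 ± 4.16 CPM (adjusted p = 0.000931), and Irf8, a myeloid lineage factor, from 82.8 ± 11.7 to 38.5 ± 4.1 CPM (adjusted p = 3.02e-05). Ezh2, neither an interferon signalling nor a promoter factor gene, was counted among the lower ones (-0.35 ± 0.08), as was Irf2 (-0.44 ± 0.13). The list thus mixes roles, and its count cannot be read as a joint loss of MHC inducers. Nfya, a subunit gene of the factor that binds the Y box, fell by 0.44 ± 0.08, whereas Nfyb and Nfyc did not pass. Nfkb1, whose product can bind enhancer A, rose by 0.16 ± 0.06 (adjusted p = 0.0483).

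Of 16 genes of the endoplasmic reticulum and endosome, 6 were lower (against 20.8% of all genes tested), 1 higher (18.5%) and 9 did not pass, with a median of -0.04. The lower ones included the endosomal protease genes Ctss, which cuts the invariant chain (-0.74 ± 0.14, adjusted p = 0.00192), Ctsd (-0.36 ± 0.06) and Lgmn (-1.07 ± 0.29). The oxidase gene Cybb was lower as well (-0.89 ± 0.20), and Sppl2a, which encodes the membrane protease that clears the invariant chain stub, rose by 0.23 ± 0.07. Of 6 constitutive proteasome and activator genes, Psme3 (0.22 ± 0.05) and Psmb7 (0.15 ± 0.05) rose, Psmb5 fell by 0.18 ± 0.06 and 3 did not pass, with a median of 0.04. Of 9 tested class I-like genes outside the complex, 2 were lower, 1 higher and 6 did not pass (median -0.09), so calls in this list and among the proteasome genes were too few to read against the 20.8% lower and 18.5% higher of all genes tested. Hfe, the class I-like iron regulator, fell from 19.4 ± 1.1 to 10 ± 0.862 CPM (adjusted p = 4.67e-05), and Mr1, which presents vitamin B metabolites, from 1.66 ± 0.207 to 0.604 ± 0.118 CPM (0.0018). Raet1d, a ligand gene of the NKG2D receptor, rose from 1.01 ± 0.301 to 3.18 ± 0.739 CPM (0.00111).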

How the data were processed

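RNA was extracted from mouse bone marrow blasts and sequenced from TruSeq libraries, per the labels' protocols. The authors deposited whole-number counts per Ensembl gene; the submitters' processing notes name TopHat2, RSEM and mm9, without versions or roles. Annotation release, strand setting and treatment of shared reads are not stated in these sources, so paralogous, overlapping and antisense genes are uncertain. Members and lists were chosen with earlier results of these data known. IDs were matched to GENCODE M21 (31636 of 35932), used for symbols, gene order, exon lengths and shared 50-base stretches of transcripts. Counts were filtered with filterByExpr, scaled by TMM and tested across all genes in edgeR 4.0.16 (R 4.3.3, quasi-likelihood F test, group only, Benjamini-Hochberg, threshold 0.05); the step was tested on simulated data. Genes are named by rule: each tested member, and related genes among the 4 smallest adjusted p of their list that passed. Nfkb1, Nfya, Nfyb, Nfyc, Irf2, Ezh2, Sppl2a and the genes of the marker lists were named after their values were seen. Promoter motifs were chosen with the sequences in view. The alternatives were RLE, upper-quartile and library-total scaling, DESeq2 1.42.0, limma-voom (limma 3.58.1), no filter, a filter of 1 CPM in 3 libraries, a replicate block, and each library left out. No pair of libraries agreed within sampling noise (chi-square per degree of freedom at least 3.92). Floors cover counting error only.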

Additional observations from a re-analysis of the deposited data

How the results depend on the processing

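The count of members lower in resistant blasts was 15 to 18 under the 8 alternatives of scaling, test, filter and block (16 as reported), and 8 to 17 when 1 library was left out. The 1 higher member, H2-Ab1, was not called with upper-quartile factors (0; adjusted p = 0.0522) or with library totals (0; adjusted p = 0.0724), and the count was 0 to 1 with 1 library left out. In edgeR, both scalings gave 1 member higher at an unadjusted p under 0.05, and DESeq2 and limma-voom each called 1. Over the whole table, 2475 genes were higher as reported and 1641 to 2521 with 1 library left out. No called member changed direction. The number of a replicate did not pair the libraries: same-numbered libraries deviated from their group means with correlations of -0.09 to 0.04, and 1 of 3 matched its own number best. With the replicate number as a block, 16 members were lower and 1 higher. No scaling moved the median of the genes tested by more than -0.04 from 0. Depth limits H2-Aa, H2-Eb1, H2-Q1, Cd74 and the members below the filter.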

Other observations

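Beside the H2-Q genes, the neighbouring genes Tcf19 and Cchcr1, singled out after their values were seen, had the lowest log2 fold changes of the 126 tested genes of the H2 complex. Tcf19, a gene of a growth-regulated factor, had 315, 235 and 249 counts across the sensitive libraries against 1, 1 and 1 counts across the resistant ones (9.35 ± 1.43 against 0.0387 ± 0.007 CPM; edgeR adjusted p = 7.47e-08). Cchcr1, the coiled-coil gene next to it, had 126, 127 and 131 counts across the sensitive libraries against 11, 7 and 7 counts across the resistant ones (4.51 ± 0.417 against 0.313 ± 0.0371 CPM; adjusted p = 1.18e-06). Both lie next after H2-Q10 among the tested genes.

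In the same stretch 10 of the 97 other genes were higher, a smaller share than the 18.5% of all genes tested. The largest rise was in Trim10, from 0.745 to 2.79 CPM (1.9 ± 0.25, edgeR adjusted p = 0.000245). The gene model Gm11127, next after H2-T22 among the tested genes, rose from 12.9 to 22.9 CPM (0.82 ± 0.14, 0.000941). It was no member because its symbol does not start with H2-, yet 5.57% of the 50-base stretches of the pseudogene H2-K2 occurred in it. The complement genes C4b, from 1.27 to 3.33 CPM (1.39 ± 0.21, adjusted p = 0.000548), and Cfb, from 1.52 to 3.43 CPM (1.18 ± 0.21, 0.00171), were higher in resistant blasts. The genes named here too were chosen after their values were seen.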
